A study of Mus musculus with 4 samples.

Results

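The Slc25 genes encode the mitochondrial carrier family, the largest group of solute transporters of the inner mitochondrial membrane. They were taken as every row of the deposited count table whose symbol begins with Slc25a and a number, which gave 40 genes of 17194. Relatives under other symbols, such as the uncoupling protein gene Ucp2, fall outside that rule, and orders and extremes below are over the 40. All 4 libraries came from mouse bone marrow macrophages in primary culture, given RANKL for 2 days. RANKL is the signal under which macrophage precursors become osteoclasts, the cells that resorb bone. The labels give 2 libraries as siHells, an siRNA knockdown of the chromatin remodeller Hells, and 2 as siControl. No source used here gives the siRNA sequences or says whether the libraries of a group came from separate cultures. The p-values therefore cover the spread between these libraries alone, and that spread may be technical.

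Mitochondrial carriers pass nucleotides, phosphate, organic acids, amino acids, cofactors and iron between the cytosol and the mitochondrial matrix, because the inner membrane itself is closed to them. The ADP/ATP and phosphate carriers feed the ATP synthase, and the malate, oxoglutarate, aspartate and glutamate carriers move reducing equivalents from NADH into the matrix. Osteoclast precursors build many mitochondria as they mature, and the series title names mitochondrial integrity as a subject of the study.

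Total counts lay between 55012697 and 55642819 in siHells and between 48873635 and 53502523 in siControl. Hells itself had 823 and 785 counts in siHells, against 1613 and 1501 counts in siControl (log2 fold change -0.99, SE 0.068, edgeR adjusted p = 5.96e-09). Of the labelled cell type, all 6 macrophage markers were in the table, and 5 rose and 1 fell in siHells. Their summed level was 22780 to 23451 CPM (TMM-scaled counts relative to library total, the unit of all levels here) in siHells and 15474 to 15613 CPM in siControl. Most of that sum was Lyz2, with a mean of 17284 CPM in siHells and 11347 CPM in siControl. The marker that fell was Cd68. Of all genes tested, 29.0% were called higher in siHells and 29.5% lower. All 6 osteoclast markers fell, with a sum of 1026 to 1060 CPM in siHells and 7365 to 7418 CPM in siControl. Among markers of other cells, 4 of 6 stromal genes rose and 1 fell, with a sum of 1417 to 1431 CPM in siHells and 822 to 845 CPM in siControl. Of the 5 neutrophil genes in the table, 3 fell and 0 rose, with Camp falling most at 2.82-fold. Their sum was 230 to 250 CPM in siHells and 253 to 261 CPM in siControl. A single erythroid marker of 8 and a single lymphoid marker of 6 were in the table, both under 1.5 CPM in every library. In bulk RNA, fewer cells of a type and less RNA per cell cannot be told apart, and the part of these marker shifts in the values below was not tested.

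Of the 40 carriers, 39 passed the filter on low counts and were tested. In siHells, 15 were lower and 10 higher than in siControl, and 14 did not pass the threshold of an adjusted p of 0.05. The 15 are 38.5% of those tested, where 29.5% of all 15651 genes were called lower, and the 10 are 25.6%, where 29.0% of all genes were called higher. Together 25 carriers, 64.1%, were called, against 58.5% of all genes. The CPM of the groups did not overlap in 32 carriers, 82.1%, against 78.5% of all genes. The median log2 fold change was -7.88e-05 over the carriers and -0.0043 over all genes. Of the carriers called with a change of at least 1.5-fold, 7 were lower, 17.9% against 11.9% of all genes, and 2 were higher, 5.13% against 13.0%. In edgeR's test against a 1.5-fold change itself, 7 of the 39 carriers were lower, 17.9%, where 7.00% of all genes were. In that test 0 were higher (1 at an unadjusted p under 0.05), where 8.06% of all genes were. The share of carriers called in either direction at an adjusted p of 0.05, and the share not overlapping, lay near those of the whole table. The gene not tested was Slc25a2, an ornithine carrier, with 4 and 15 counts in siHells and 5 and 6 counts in siControl.

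**Figure D1:**
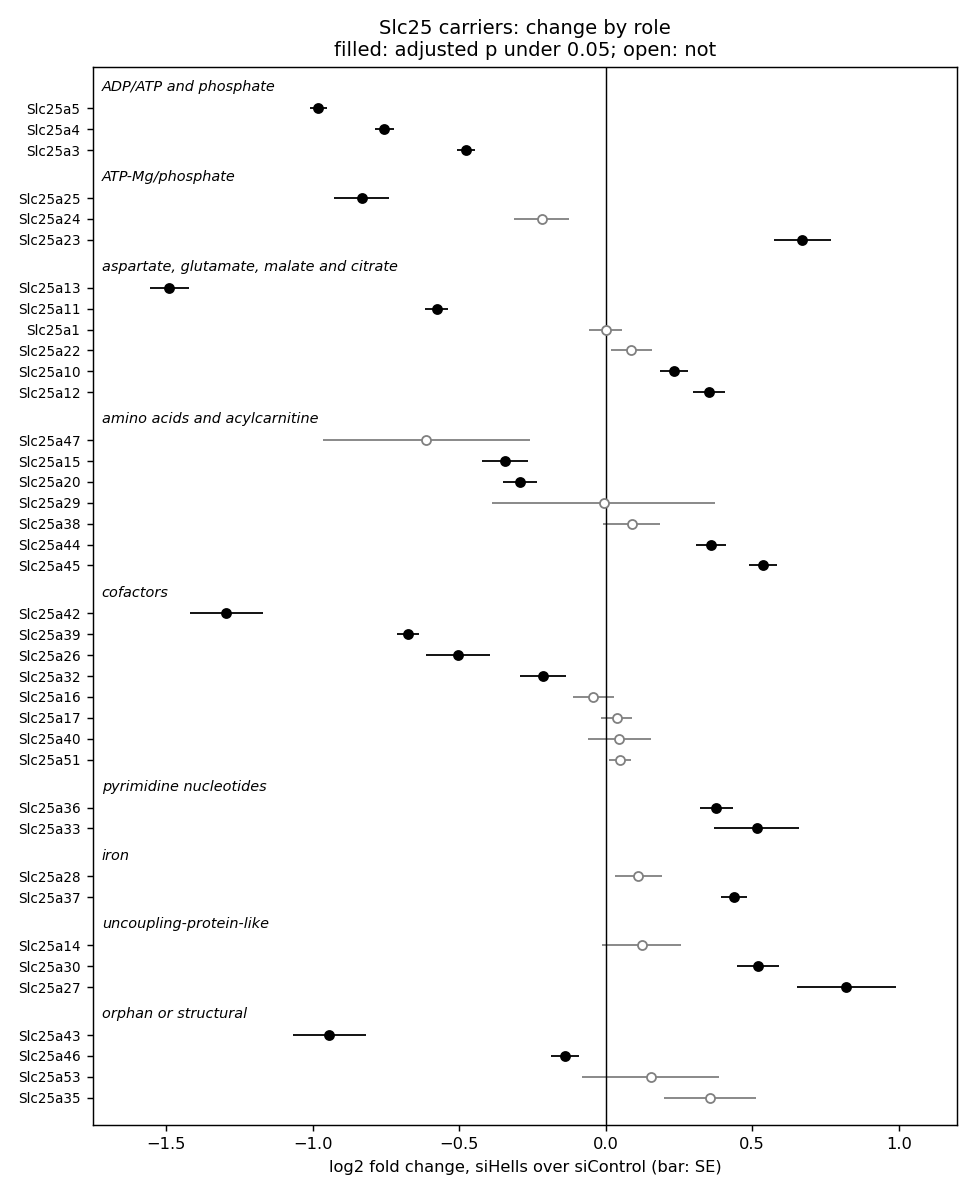
Log2 fold change of 38 of the 39 tested Slc25 carriers, siHells over siControl, grouped by what they carry, with bars for the SE and n = 2 libraries per group. Filled points passed an adjusted p of 0.05, and the 3 carriers of ADP, ATP and phosphate all lie left of 0 while both pyrimidine nucleotide carriers lie right of it. Of all genes tested, 29.5% were called lower and 29.0% higher.

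The DNA just before the start of 4 carrier genes is shown because they form the ADP/ATP pair, in which both members fell, and the aspartate/glutamate pair, in which the members moved apart. Each run is the 250 bases before a listed transcript start, 5′ to 3′ on the gene's strand, from RefSeq on GRCm38.p6. The 25 bases after the start were found in a GENCODE M21 transcript of the gene for Slc25a4 and Slc25a13, but not for Slc25a5 and Slc25a12. RefSeq places the outer end of Slc25a13 and Slc25a12 further upstream, so that 131 bases of the first window, its E-box included, and 26 bases of the second lie inside the gene span given below. Capitals mark CpG dinucleotides, the sites at which DNA is methylated in mammals. Hells is needed for normal DNA methylation, but methylation was not measured in these libraries. The windows are chrX:36795347-36795596 on the plus strand for Slc25a5, chr8:46211063-46211312 on the minus strand for Slc25a4, chr6:6217174-6217423 on the minus strand for Slc25a13 and chr2:71367756-71368005 on the minus strand for Slc25a12.
Slc25a5: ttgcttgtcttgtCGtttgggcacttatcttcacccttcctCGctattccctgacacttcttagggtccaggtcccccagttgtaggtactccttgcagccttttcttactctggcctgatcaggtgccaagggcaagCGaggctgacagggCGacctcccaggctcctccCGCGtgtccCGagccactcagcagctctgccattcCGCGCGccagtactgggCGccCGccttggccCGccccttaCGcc
Slc25a4: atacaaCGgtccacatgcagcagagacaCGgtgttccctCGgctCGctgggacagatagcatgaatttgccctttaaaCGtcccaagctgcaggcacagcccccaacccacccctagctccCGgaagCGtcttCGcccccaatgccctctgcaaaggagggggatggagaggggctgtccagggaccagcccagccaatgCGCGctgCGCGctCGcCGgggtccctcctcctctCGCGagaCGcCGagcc
Slc25a13: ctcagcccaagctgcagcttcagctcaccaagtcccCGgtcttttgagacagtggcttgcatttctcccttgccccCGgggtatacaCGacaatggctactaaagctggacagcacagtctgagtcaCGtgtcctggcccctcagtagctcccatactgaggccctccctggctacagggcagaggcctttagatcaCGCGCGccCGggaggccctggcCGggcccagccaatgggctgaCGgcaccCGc
Slc25a12: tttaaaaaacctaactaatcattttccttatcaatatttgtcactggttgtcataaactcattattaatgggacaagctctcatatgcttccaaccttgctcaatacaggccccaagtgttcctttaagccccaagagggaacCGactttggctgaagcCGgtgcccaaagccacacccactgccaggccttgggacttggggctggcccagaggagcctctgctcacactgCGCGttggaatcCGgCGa
These windows held 14 CpGs in Slc25a5, 18 in Slc25a4, 11 in Slc25a13 and 6 in Slc25a12. A window was matched for 30 of the 40 carriers. The median number of CpGs was 10.5 in the 7 carriers of these that rose (6 to 24), 18 in the 11 that fell (6 to 35) and 14 in the 12 that were not called (4.67 to 40, averaged over windows where a gene has several), against 15 over 11259 tested genes with a window. The ranges overlap throughout. The E-box CACGTG, which reads the same on both strands, was in the windows of 6 of the 30 carriers, 20%, and in those of 6.86% of 27025 genes. For this and the motifs below, the 27025 are all genes with a window, many of them not tested here, unlike the 11259 above. The 6 were Slc25a13 (bases -125 to -120 from the start), Slc25a1, Slc25a14, Slc25a15, Slc25a33 and Slc25a36. Of these, 2 fell, 2 rose and 2 were not called. The Slc25a15 window with the E-box lay wholly inside the gene span. The 25 bases after its start were not found in a GENCODE M21 transcript of the gene. The nuclear receptor half-site AGGTCA, searched on both strands, was in 3 windows, 10%, against 15.8% of genes, and these were Slc25a39, Slc25a45 and Slc25a47. The windows of Slc25a39 and Slc25a47 lay wholly inside the gene span. The longer site TCAAGGTCA, bound by the oestrogen-related receptors and containing that half-site, was found in 0 carrier windows and in 0.422% of genes, and the NRF1 core GCATGCGC in 0 and in 2.56%. A match describes the letters in the window and shows no binding.

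The 3 carriers that supply oxidative phosphorylation all fell, where 29.5% of all genes were called lower. They were the most abundant of the 40 carriers. Slc25a5, an ADP/ATP carrier that exchanges matrix ATP for cytosolic ADP in dividing cells, had 324 and 332 CPM in siHells, against 639 and 657 CPM in siControl. The siHells values were all far below the siControl values, for a fall of 1.97-fold (log2 fold change -0.98, SE 0.030, adjusted p = 3.14e-13). Slc25a4, the ADP/ATP carrier that predominates in heart and muscle, had 166 and 168 CPM in siHells, against 284 and 281 CPM in siControl, and fell 1.69-fold (log2 fold change -0.76, SE 0.032, adjusted p = 1.84e-11). Slc25a3, the phosphate carrier, which also brings copper into the matrix, had 335 and 344 CPM in siHells, against 477 and 469 CPM in siControl, and fell 1.39-fold (log2 fold change -0.48, SE 0.030, adjusted p = 1.85e-09). The libraries of each group lay close together in all 3 genes and the groups did not overlap. Slc25a31, the ADP/ATP carrier of the male germline, was not analysed here. Slc25a5 lies on chromosome X at 36795597 to 36798808 of GRCm38, plus strand, Slc25a4 on chromosome 8 at 46207168 to 46211062, minus strand, and Slc25a3 on chromosome 10 at 91116574 to 91124046, minus strand. RefSeq lists a processed copy, Slc25a5-ps, on another chromosome, and reads shared with it cannot be told apart in these counts.

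Per kilobase of exon, 5 of the 40 carriers led in the same order in both groups: Slc25a5, Slc25a4, Slc25a3, Slc25a11 and Slc25a39. All 5 fell. The lengths are exons merged over all transcripts of a gene, and the order depends on them. In CPM without lengths, Slc25a3 (5550 bases) lay above Slc25a4 (2353 bases) in both groups and above Slc25a5 (1646 bases) in siHells. Slc25a5 stood at 197 and 202 CPM per kilobase in siHells and at 388 and 399 in siControl, well above the next, Slc25a4, at 70.7 and 71.4 in siHells and at 121 and 119 in siControl. Slc25a3 had 60.4 and 62.0 CPM per kilobase in siHells and 86.0 and 84.4 in siControl, and Slc25a11 had 53.4 and 52.3 in siHells and 76.7 and 80.9 in siControl. None of these neighbours in the order overlapped within a group. The lowest carriers were Slc25a2, Slc25a29, Slc25a47 and Slc25a53, each under 0.27 CPM per kilobase on average in either group.

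**Figure D2:**
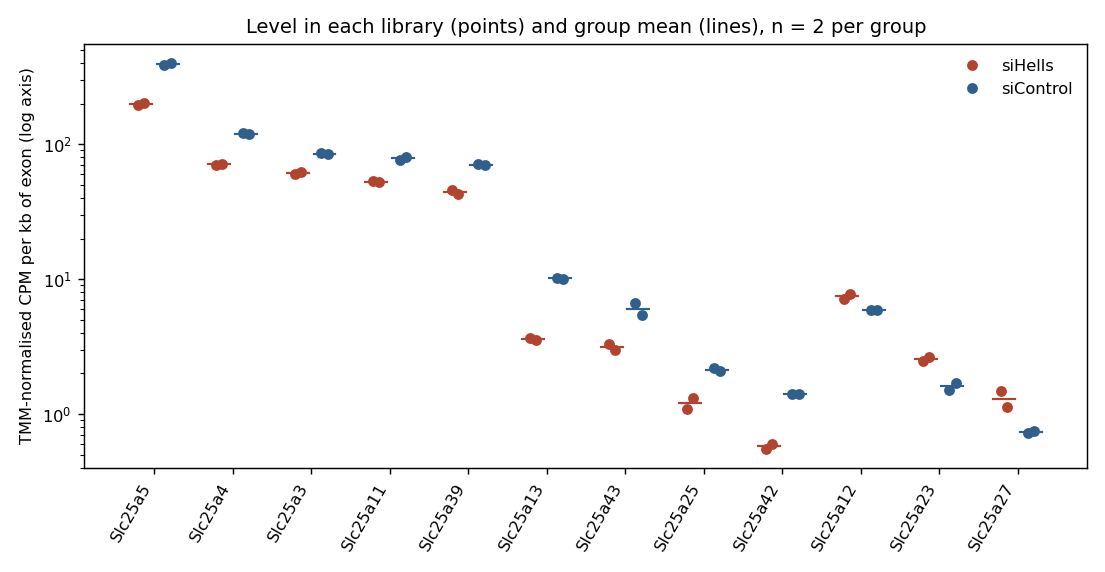
TMM-normalised CPM per kilobase of exon on a log axis for 12 carriers, siHells left of siControl, with a point for each library and a line for the mean of the group (n = 2). In the 5 carriers at the left, the highest of the 40, every siHells point lies below every siControl point, and in the 3 at the right, Slc25a12, Slc25a23 and Slc25a27, above.

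Summed over all 40 carriers, the level was 2139 and 2190.3 CPM in siHells, against 2799 and 2809.6 CPM in siControl. The sum was 1.30 times as high in siControl (2165 ± 36.2 CPM in siHells and 2804 ± 7.24 CPM in siControl, SD, n = 2 each), and the exact two-sided permutation p was 0.333, the smallest that 2 libraries against 2 can give. Most of this difference lay in 3 genes. Slc25a3, Slc25a4 and Slc25a5 together had 826 and 844 CPM in siHells, against 1399.8 and 1406 CPM in siControl, while the other 37 carriers had 1313 and 1346 CPM in siHells, against 1399.5 and 1404 CPM in siControl. The 3 genes held 38.6% and 38.5% of the carrier CPM in siHells and 50.005% and 50.04% in siControl.

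Ucp2, an uncoupling protein related to these carriers by sequence, is not one of the 40, and moved the opposite way to their sum. It had 1505 and 1462 CPM in siHells, against 784 CPM in both siControl libraries, and rose 1.89-fold (log2 fold change 0.92, SE 0.026, adjusted p = 1.58e-13). Its level per kilobase of merged exon was 215 and 209 CPM in siHells, where it lay above Slc25a5. It was 112 CPM in both siControl libraries, where it lay below Slc25a4. The merged length was 6989 bases for Ucp2, against 2353 for Slc25a4 and 1646 for Slc25a5. In CPM without lengths, Ucp2 lay above Slc25a4 and Slc25a5 in each group, so these places depend on the length used. With Ucp2 added, which was done after its values had been seen, the summed level was 3644 and 3652 CPM in siHells and 3583 and 3594 CPM in siControl.

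**Figure D3:**
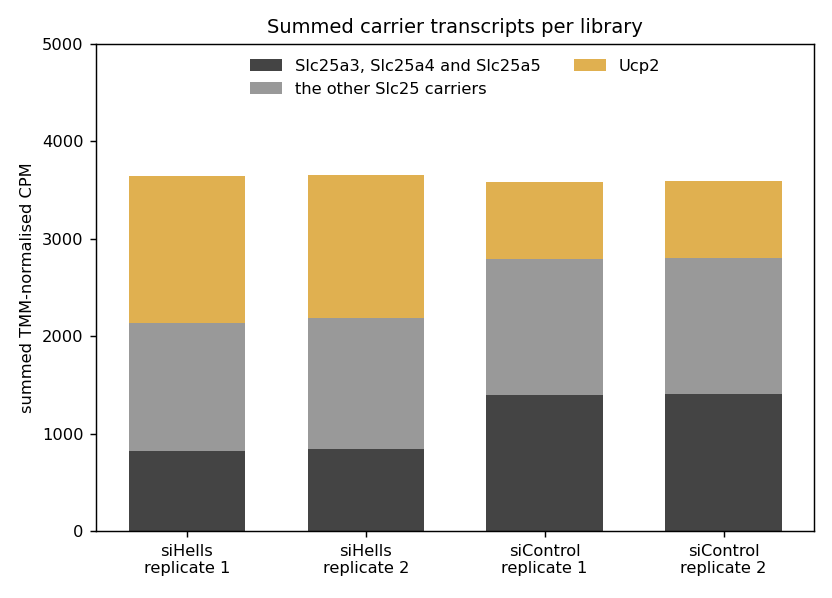
Summed TMM-normalised CPM in each library, siHells left of siControl, of Slc25a3, Slc25a4 and Slc25a5 (dark), the other 37 Slc25 carriers (grey) and Ucp2 (yellow). The dark part is 826 and 844 CPM in siHells against 1399.8 and 1406 CPM in siControl, and the yellow part is larger in siHells.

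The ATP-Mg/phosphate carriers, which adjust the adenine nucleotide pool of the matrix and are activated by calcium, went both ways. Slc25a23 had 13.0 and 13.98 CPM in siHells, against 8.02 and 8.97 CPM in siControl, and rose 1.59-fold (log2 fold change 0.67, SE 0.097, adjusted p = 2.47e-05). Slc25a25 had 8.58 and 10.2 CPM in siHells, against 17.1 and 16.4 CPM in siControl, and fell 1.78-fold (log2 fold change -0.83, SE 0.095, adjusted p = 2.08e-06). The groups did not overlap in either gene. Slc25a24, the most abundant of the 3, had 63.3 and 77.7 CPM in siHells, against 81.9 and 82.1 CPM in siControl, and did not pass the threshold (log2 fold change -0.22, adjusted p = 0.0925). Its value turned on the siHells library used: it was -0.37 (adjusted p = 6.41e-09) without siHells replicate 2 and -0.08 (adjusted p = 0.181) without siHells replicate 1. With the replicate number as a block its adjusted p was 0.00872. Slc25a23 lies on chromosome 17 at 57043711 to 57059909 and Slc25a25 on chromosome 2 at 32414487 to 32451470, both on the minus strand of GRCm38.

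Carriers of the malate-aspartate shuttle, which brings the electrons of cytosolic NADH into the matrix, included the largest fall among the 39 tested and a rise in its nearest relative. Slc25a13, the aspartate/glutamate carrier known as citrin, had 14.002 and 13.3 CPM in siHells, against 38.9 and 37.8 CPM in siControl. That is a fall of 2.81-fold, with siHells libraries close to each other and far below siControl (log2 fold change -1.49, SE 0.067, adjusted p = 3.18e-11). Slc25a12, known as aralar, carries the same substrates, and had 52.4 and 57.4 CPM in siHells, against 43.0 CPM in both siControl libraries. It rose 1.28-fold (log2 fold change 0.35, SE 0.055, adjusted p = 4.94e-05). Slc25a11, the oxoglutarate/malate carrier and the other arm of the shuttle, had 113 and 111 CPM in siHells, against 163 and 172 CPM in siControl, and fell 1.49-fold (log2 fold change -0.58, adjusted p = 4.23e-09). Rnf167 covers 8.9% of its exon length, and because the strand of the counts is unknown, reads there could belong to either gene. Slc25a13 lies on chromosome 6 at 6041218 to 6217304, Slc25a12 on chromosome 2 at 71274270 to 71367781 and Slc25a11 on chromosome 11 at 70644019 to 70647531, all on the minus strand of GRCm38.

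The 4 enzymes of the same shuttle all fell, where 29.5% of all genes were called lower. The malate dehydrogenases Mdh2, in the matrix, and Mdh1, in the cytosol, were 2.38-fold and 2.15-fold lower in siHells (adjusted p = 5.87e-14 and 5.54e-13). The aspartate aminotransferases Got1, in the cytosol, and Got2, in the matrix, had log2 fold changes of -0.53 and -0.19 (adjusted p = 9.75e-08 and 0.00109). Slc25a12 was the only component of the shuttle measured here, of 3 carriers and 4 enzymes, that rose. Of all genes tested, 29.0% were called higher.

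The carriers of other organic acids moved less. Slc25a10, the dicarboxylate carrier, which trades malate or succinate for phosphate, had 62.4 and 60.5 CPM in siHells, against 51.7 and 52.9 CPM in siControl, and rose 1.18-fold (log2 fold change 0.23, adjusted p = 0.000587). Slc25a1, the citrate carrier, which exports citrate for lipid synthesis, had 48.3 and 43.8 CPM in siHells, against 45.7 and 46.5 CPM in siControl, with overlapping groups (log2 fold change -7.88e-05, SE 0.057, adjusted p = 0.999). On the same route, Cs, which makes citrate, fell 1.80-fold and Acly, which splits it in the cytosol, had a log2 fold change of -0.21, while the malic enzyme Me1 rose 1.32-fold (adjusted p = 0.00124). Slc25a22, a glutamate carrier, stood at 0.09 on the log2 fold scale (adjusted p = 0.305). Glud1, which makes oxoglutarate from glutamate, stood at -0.17 (adjusted p = 0.00021).

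Among the cofactor carriers 5 of 9 fell, 55.6%, where 29.5% of all genes were called lower. Of these 9, 0 passed the threshold as higher, where 29.0% of all genes did. Slc25a42, which brings coenzyme A into the matrix, had 3.32 and 3.56 CPM in siHells, against 8.44 and 8.45 CPM in siControl, the second largest fall among the 39 at 2.45-fold (log2 fold change -1.30, SE 0.12, adjusted p = 2.90e-07). Slc25a39, which imports glutathione, had 126 and 118 CPM in siHells, against 197 and 193 CPM in siControl, and fell 1.596-fold (log2 fold change -0.67, SE 0.038, adjusted p = 5.91e-10). Slc25a40, its paralogue with the same substrate, had 10.96 and 12.5 CPM in siHells, against 12.4 and 10.3 CPM in siControl, with overlapping groups (log2 fold change 0.05, adjusted p = 0.734). In glutathione synthesis the subunits of its first enzyme, Gclm and Gclc, rose 1.70-fold and 1.25-fold, Gss, which completes the molecule, fell 1.75-fold, and Afg3l2, a protease of the inner membrane that in human cells degrades the SLC25A39 protein, had a log2 fold change of -0.38. Falls also came in Slc25a26, the S-adenosylmethionine carrier (log2 fold change -0.50, adjusted p = 0.00107) and in Slc25a32, which carries folate (-0.22, adjusted p = 0.0279). The call for Slc25a32 was lost without siHells replicate 1 (-0.13, adjusted p = 0.224), without siControl replicate 1 (-0.24, adjusted p = 0.0556) and without siControl replicate 2 (-0.19, adjusted p = 0.130). Slc25a51, the NAD carrier, was abundant at 120 and 123 CPM in siHells and 118 and 117 CPM in siControl, and was not called (log2 fold change 0.05, SE 0.037, adjusted p = 0.297). Slc25a16 and Slc25a17, of which the second is the peroxisomal carrier of the family, had log2 fold changes of -0.04 and 0.04. Slc25a42 lies on chromosome 8 at 70184340 to 70212281 and Slc25a39 on chromosome 11 at 102402969 to 102408675 of GRCm38, both on the minus strand.

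Both pyrimidine nucleotide carriers, which supply the synthesis of mitochondrial DNA and RNA, rose, where 29.0% of all genes were called higher. Slc25a36 had 129 and 148 CPM in siHells, against 106 and 107 CPM in siControl, a rise of 1.30-fold (log2 fold change 0.38, SE 0.056, adjusted p = 0.000162). Slc25a33 had 5.41 and 5.07 CPM in siHells, against 3.98 and 3.32 CPM in siControl, a rise of 1.43-fold (log2 fold change 0.51, SE 0.14, adjusted p = 0.00646). Its call was lost without siControl replicate 2 (0.40, adjusted p = 0.0607), and 14.9% of its exon length is shared with the antisense Gm13068. Tk2, the thymidine kinase of mitochondria, rose 1.55-fold (adjusted p = 9.80e-08), while Cmpk2 and Polrmt, a pyrimidine kinase and the mitochondrial RNA polymerase, were not called at -0.05 and -0.11.

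Of the mitoferrins, which import iron for haem and iron-sulphur clusters, Slc25a37 had 88.2 and 92.6 CPM in siHells, against 67.8 and 65.7 CPM in siControl, and rose 1.35-fold (log2 fold change 0.44, SE 0.044, adjusted p = 5.59e-07). It is best known from red cell precursors. Epor, the single erythroid marker in the table, had 0.738 and 1.08 CPM in siHells and 1.42 and 1.34 CPM in siControl. Slc25a28, the widely expressed mitoferrin, had 24.9 and 21.3 CPM in siHells, against 20.7 and 22.1 CPM in siControl, with overlapping groups (log2 fold change 0.11, adjusted p = 0.252). It passed the threshold without siHells replicate 2 (0.22, adjusted p = 0.0187) and stood at -0.0046 without siHells replicate 1. Of 8 listed genes of haem and iron-sulphur cluster synthesis, 5 fell, 62.5%, and 1 rose, 12.5%, against 29.5% and 29.0% of all genes. The cluster scaffold Iscu fell 1.24-fold and Alas1, the first enzyme of haem synthesis, 1.70-fold, while the haem enzyme Ppox rose 1.25-fold. Slc25a38, which brings in the glycine for Alas1, stood at 0.09 on the log2 fold scale (adjusted p = 0.453).

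The carriers named for their likeness to uncoupling proteins rose or did not pass. Slc25a27, known mainly from the nervous system, had 5.83 and 4.399 CPM in siHells, against 2.84 and 2.96 CPM in siControl, the largest rise among the 39 at 1.77-fold (log2 fold change 0.82, SE 0.17, adjusted p = 0.000636). Its siHells libraries lay apart, and leaving out the higher of them, replicate 1, gave a log2 fold change of 0.61, while leaving out replicate 2 gave 1.01. Slc25a30, a carrier first described in kidney, had 24.96 and 23.7 CPM in siHells, against 16.5 and 17.5 CPM in siControl, and rose 1.43-fold (adjusted p = 1.51e-05). Slc25a14 stood at 0.12 on the log2 fold scale (adjusted p = 0.462). The Slc25a27 gene, on the minus strand of chromosome 17, spans 43637739 to 43667214 in GRCm38.

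Carriers of amino acids and acylcarnitines split evenly among the calls. Slc25a45, a member whose substrate is less well known, had 80.6 and 83.1 CPM in siHells, against 54.8 and 58.2 CPM in siControl, and rose 1.45-fold (log2 fold change 0.54, adjusted p = 1.00e-07). Slc25a44, the carrier of branched-chain amino acids, had 50.9 and 48.9 CPM in siHells, against 38.8 and 39.1 CPM in siControl, and rose 1.28-fold (adjusted p = 2.37e-05). Bcat2, the mitochondrial transaminase of those amino acids, stood at 0.18 on the log2 fold scale (adjusted p = 0.000358), and the dehydrogenase subunits Bckdha and Bckdhb, at -0.0047 and -0.05, were not called. Slc25a20, the carnitine-acylcarnitine carrier needed to burn long-chain fatty acids, had 32.1 and 29.9 CPM in siHells, against 38.2 and 37.9 CPM in siControl, with a log2 fold change of -0.29 (adjusted p = 0.000492). Its partner Cpt2 fell 1.43-fold, and Crat, which makes acetylcarnitine, was called at -0.10 (adjusted p = 0.0462), a call lost without siHells replicate 1 (adjusted p = 0.114), siControl replicate 1 (adjusted p = 0.0773) or siControl replicate 2 (adjusted p = 0.303) and with the replicate block (adjusted p = 0.0542), DESeq2 size factors (adjusted p = 0.0559) or the DESeq2 Wald test (adjusted p = 0.128). Slc25a15, the main ornithine carrier, stood at -0.34 on the log2 fold scale (adjusted p = 0.00146), beside Oat, the ornithine aminotransferase, at -0.26. Slc25a29 and Slc25a47 had at most 47 counts in any library, and neither was called.

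Of the members with no settled substrate, Slc25a43 had 5.87 and 5.31 CPM in siHells, against 11.8 and 9.59 CPM in siControl, and fell 1.92-fold (log2 fold change -0.94, SE 0.12, adjusted p = 9.73e-06). It is the neighbour of Slc25a5 on chromosome X, 18289 bases away, at 36743570 to 36777307 of GRCm38 on the same strand. Slc25a46, an outer membrane protein that acts in mitochondrial fission and fusion, was called lower at a log2 fold change of -0.14 (adjusted p = 0.0225). The call was lost without siHells replicate 1 (-0.08, adjusted p = 0.182), without siControl replicate 1 (-0.15, adjusted p = 0.0777) and without siControl replicate 2 (-0.13, adjusted p = 0.104). Slc25a35 and Slc25a53 were not called, and 31.3% of the exon length of Slc25a35 is shared with Rangrf on the opposite strand. Other genes share 7.1% of the exon length of Slc25a46, 6.6% of Slc25a10 and 4.8% of Slc25a25. In Slc25a37, Gm31748 shares 6.3% of the exon length and Gm27223 shares 1.5%.

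Ratios within a library compare carriers that share a substrate without any scaling between libraries. The CPM of Slc25a12 was 3.75 and 4.30 times that of Slc25a13 in siHells, against 1.10 and 1.14 times in siControl. That of Slc25a39 was 11.5 and 9.47 times that of Slc25a40 in siHells, against 15.9 and 18.8 times in siControl. That of Slc25a23 was 0.206 and 0.180 of Slc25a24 in siHells, against 0.0979 and 0.109 in siControl. In these pairs the groups did not overlap. For the ADP/ATP carriers the shift was smaller, with Slc25a4 at 0.513 and 0.505 of Slc25a5 in siHells, against 0.444 and 0.427 in siControl. The ratio of Slc25a37 to Slc25a28 was 3.54 and 4.35 in siHells, against 3.27 and 2.97 in siControl, and that of Slc25a33 to Slc25a36, with overlapping groups, was 0.0419 and 0.0343 against 0.0374 and 0.0310. Exact two-sided permutation p-values were 0.333, the smallest possible here, for 5 pairs and 0.667 for Slc25a33 to Slc25a36.

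**Figure D4:**
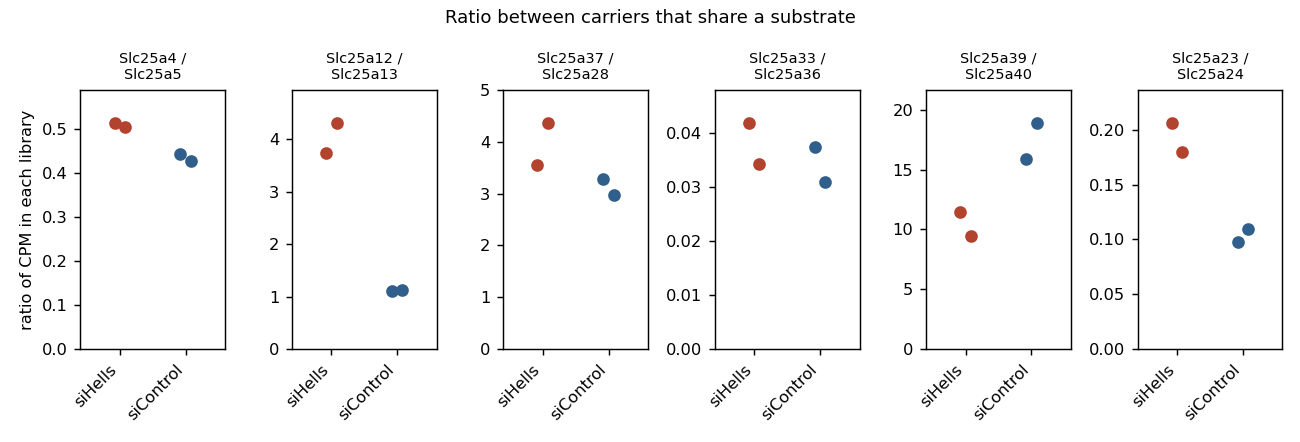
Ratio of the CPM of 2 carriers with a shared substrate in each library, siHells left of siControl, each panel with its own linear axis from 0. The ratio of Slc25a12 to Slc25a13 is 3.75 and 4.30 in siHells and 1.10 and 1.14 in siControl, and in the panel of Slc25a33 to Slc25a36 the groups overlap.

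Other transporters of the mitochondrial membranes were measured in a list of 28, of which 26 were in the table and 25 were tested. In siHells 18 were lower, 72.0%, and 5 higher, 20%, with a median log2 fold change of -0.38, against 29.5% and 29.0% and a median of -0.0043 over all genes. The voltage-dependent anion channels Vdac2 and Vdac1, the main pores of the outer membrane, fell 1.81-fold and 1.58-fold, and the pyruvate carrier subunit Mpc2 fell 1.61-fold. Its partner Mpc1 had a log2 fold change of -0.19, with the call lost without siHells replicate 1 (adjusted p = 0.0542). The 5 that rose were Ucp2, the sideroflexin Sfxn5 (2.23-fold), the sodium-calcium exchanger Slc8b1 (1.98-fold), the outer membrane carrier relative Mtch1 (1.12-fold) and the uniporter subunit Mcub. Mcub had a log2 fold change of 0.18, with the call lost without siHells replicate 1 (adjusted p = 0.112) and without siControl replicate 2 (adjusted p = 0.156). It was also not called with upper-quartile scaling (adjusted p = 0.0639), library totals (adjusted p = 0.167) or the DESeq2 Wald test (adjusted p = 0.0599).

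Newly made carriers reach the inner membrane through the receptor Tomm70a, the small chaperones of the intermembrane space and the TIM22 complex. Of 10 genes of this route, 6 were lower and 2 higher in siHells, with a median log2 fold change of -0.44, where 29.5% and 29.0% of all genes were called and the median was -0.0043. Tomm70a fell 1.39-fold, the chaperones Timm8a1 and Timm10 fell 1.80-fold and 1.75-fold, and Agk, a lipid kinase that is also part of TIM22, fell 1.72-fold. The 2 called higher, Timm29 and Timm10b, had log2 fold changes of 0.14 and 0.19. Timm29 did not pass without siHells replicate 2 (adjusted p = 0.0538) or without siControl replicate 1 (0.08, adjusted p = 0.350), and Timm10b did not without siHells replicate 1 (adjusted p = 0.108), siControl replicate 1 (adjusted p = 0.0678) or siControl replicate 2 (adjusted p = 0.0729). Neither was called with library totals (adjusted p = 0.284 and 0.131) or in the DESeq2 Wald test (adjusted p = 0.0845 and 0.0503), and Timm29 was not with upper-quartile scaling (adjusted p = 0.0913) or with no filter (adjusted p = 0.0508).

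The enzymes that make or use what the carriers move were listed by route, 50 genes in all. In siHells 28 were lower, 56.0%, and 9 higher, 18%, with a median log2 fold change of -0.20, against 29.5%, 29.0% and -0.0043 over all genes. Beside the ADP/ATP carriers, the ATP synthase subunits Atp5b and Atp5a1 fell 1.92-fold and 1.73-fold, and Ppif, a regulator of the permeability transition pore, fell 2.02-fold. All 4 genes of that route and all 4 of the malate-aspartate shuttle fell. The 9 that rose were Gclm, Gclc, Tk2, Me1, Ppox and Bcat2, given above, Arg1 (56 and 46 counts in siHells, 11 and 17 in siControl), Arg2 (67 and 57 counts in siHells, 32 and 37 in siControl) and Cpt1a (log2 fold change 0.12). Arg2 was not called without siHells replicate 1 (adjusted p = 0.123) or siControl replicate 1 (adjusted p = 0.180), and Cpt1a not without siHells replicate 2 (adjusted p = 0.0805), siControl replicate 1 (adjusted p = 0.0955) or siControl replicate 2 (adjusted p = 0.0610). The DESeq2 Wald test did not call Arg2 (adjusted p = 0.123), and Cpt1a was not called with upper-quartile scaling (adjusted p = 0.0659) or library totals (0.05, adjusted p = 0.323).

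Across the 39 tested carriers, Spearman's rho of the log2 fold change was -0.24 with the siControl level per kilobase and 0.15 with exon length. These are descriptions over genes that share the same 4 libraries.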

How the data were processed

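The table deposited by the authors gives raw counts, with 1 column per library and a row for each of 17194 symbols. Per the submitters' processing notes, the build was mm10 and the tools were HISAT2 2.1.0, StringTie 2.1.3b, Trimmomatic 0.38, FastQC and edgeR, with no roles stated. No source used here gives the annotation or the strand setting, and per the labels' protocols both a SMARTer and a TruSeq Stranded kit are named. The lowest count was 1, with 0 values of 0, so symbols with 0 reads in any library were not analysed here.

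Genes were filtered with filterByExpr (minimum count 10, minimum total 15), which left 15651, scaled by TMM and tested with the edgeR 4.0.16 quasi-likelihood test (R 4.3.3, robust, group as the only term, 2 residual degrees of freedom), with Benjamini-Hochberg adjustment over all genes and a threshold of 0.05. The common biological coefficient of variation was 0.0418. An SE is the log2 fold change divided by the root of the F statistic. CPM are divided by TMM-scaled totals of tested genes. Levels per kilobase use GENCODE M21 exon lengths merged over all transcripts of a gene, which can exceed the length of any 1 transcript. Gene spans and promoter windows are from RefSeq GRCm38.p6, with strand and exon overlaps from GENCODE M21. A window precedes 1 listed transcript start, which need not be the outer end of the gene span. At this depth counting error limits the lowest carriers. The mean chi-square per gene between the libraries of a group, 1 under counting noise alone, was 6.26 in siHells and 3.45 in siControl.

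Values in every library are given for carriers called with at least a 1.5-fold change, the 5 highest per kilobase and 6 pairs sharing a substrate, and further carriers were given the same way after their values were seen. Listed genes are those with the smallest p per list or route, with exceptions in direction. The values of 1 carrier and of some listed genes are not reported here, though counts over the family and the lists include them. The carriers, lists and pairs were chosen with earlier results of these data known. Alternatives were DESeq2 size factors, upper-quartile scaling, library totals, no filter, at least 1 CPM in 2 libraries, the DESeq2 1.42.0 Wald test, limma 3.58.1 voom, the replicate block, each library left out, a threshold of 0.01 and a test against a 1.5-fold change.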

Additional observations from a re-analysis of the deposited data

How the results depend on the processing

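Under the scalings, filters, other tests, the 0.01 threshold and left-out libraries, 13 to 16 carriers were lower and 9 to 11 higher in siHells. Against a 1.5-fold change rather than none, 7 of the 39 carriers tested were lower, 17.9%, where 7.00% of all genes were. Against that fold 0 were higher (1 at an unadjusted p under 0.05), where 8.06% of all genes were. In that test 3 related transporters were lower and 3 higher, 12 route genes lower and 2 higher, and 3 import genes lower and 0 higher. The import genes called higher were 2 with TMM, 1 with upper-quartile scaling or no filter, 0 with library totals (0 at an unadjusted p under 0.05), the DESeq2 Wald test (2 at an unadjusted p under 0.05) or a threshold of 0.01, and 0 to 1 with a library left out. The log2 ratio of the summed carrier CPM, -0.37 with TMM, was -0.45 to -0.37 under the other scalings and -0.39 to -0.35 with a library left out. It was 0.0239 with Ucp2 added, which reverses the sign and was chosen after seeing the data. Hells stayed between -1.07 and -0.96 in all fits.

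No carrier that was called changed sign. Uncalled carriers and listed genes near 0 did. With library totals Slc25a17 was at -0.0356, Slc25a51 at -0.0262 and Slc25a40 at -0.0273. Slc25a1 was at 0.00309 with DESeq2 size factors and 0.00271 in the DESeq2 Wald test. With a library left out, Slc25a1 lay between -0.0712 and 0.0730, Slc25a16 between -0.0839 and 0.00251, Slc25a28 between -0.00457 and 0.22, Slc25a29 between -0.0840 and 0.0650, Slc25a38 between -0.0107 and 0.187, Slc25a40 between -0.0710 and 0.186, Slc25a53 between -0.0526 and 0.421, Bckdha between -0.0151 and 0.00611 and Bckdhb between -0.166 and 0.0626. The cause was not tested. With the DESeq2 Wald test Slc25a46 and Slc25a32 lost their calls (adjusted p = 0.0612 and 0.0847). Slc25a24 gained one with library totals, with no filter and in limma voom (adjusted p = 0.0389, 0.0490 and 0.0151).

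The groups share replicate numbers, but the difference between replicates 1 and 2 correlated by only 0.042 between groups over 15651 genes, so the numbers were not taken to pair the libraries. With the replicate block 16 carriers were lower and 10 higher, and Slc25a24 was the single carrier whose call changed (adjusted p = 0.00872); Crat, among the named listed genes, lost its call. Low counts limit Slc25a2, which was not tested, and Slc25a29, Slc25a47 and Slc25a53, whose SEs on the log2 scale were 0.38, 0.35 and 0.23.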
